A study of Arabidopsis thaliana with 4 samples.

Results

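SHORT LIFE (SHL), EARLY BOLTING IN SHORT DAYS (EBS) and EMBRYONIC FLOWER 1 (EMF1) are plant proteins that work with Polycomb group complexes, which keep developmental genes silent. Described here is where peaks called for tagged SHL lay, or were absent, at the genes for these 3 proteins and for 7 more: LHP1, VRN1, RING1A, RING1B, BMI1A, BMI1B and BMI1C. The 10 genes were chosen by locus identifier from 27444 protein-coding genes, and a peak counted for a gene when it touched the gene body or 1 kb on either side. All 10 were found in the reference gene table, and none was dropped by a filter.

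The peaks came from chromatin immunoprecipitation followed by sequencing (ChIP-seq) of Col-0 Arabidopsis thaliana, harvested as whole seedlings about 10 days old. Each day gave them 16 h of light, then 8 h of darkness. All samples shared 1 genotype: ebs shl mutants with a transgene for HA-tagged SHL under the native SHL promoter. The 2 ChIP samples were precipitated with anti-HA, and 2 input samples of the same line had no antibody. Only the ChIP samples had a peak list, so no input value could be set beside a score here, and no group comparison could be tested. Whether the inputs served as control when the peaks were called is not stated. The labels do not say whether the replicates came from separate cultures, whether the transgenic line was a single insertion, or which alleles of ebs and shl it carried.

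In Polycomb silencing, PRC2 places the mark H3K27me3 on histone H3. In plants this mark is bound by the chromodomain protein LHP1 and by the BAH domains of SHL and EBS, whose PHD fingers bind H3K4me3. SHL and EBS associate with EMF1. RING1 and BMI1 proteins carry RING fingers and attach ubiquitin to histone H2A, the activity that defines PRC1 in animals. VRN1 is a B3-type DNA-binding protein needed for a lasting response to winter cold. The peaks below show where the anti-HA precipitate was called as enriched on genes of this pathway.

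Replicate 1 listed 3668 nuclear peaks with a median width of 1076 bp, and replicate 2 listed 3487 with a median width of 1216 bp. Each peak carries the authors' score, which is higher for stronger evidence and was compared only within its own list. Nuclear scores ran from 20.01 to 3217 in replicate 1 and from 20 to 3220 in replicate 2, with medians of 39.1 and 39.9. Joining each peak to those it overlapped in the other list gave 2186 common regions. Ranks below are over whole lists of 3678 and 3494 peaks, which include a few mitochondrial peaks. Read depth is unknown from these lists.

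Of the 10 genes, 2 had a common region on the body or its flanks, and these were SHL and EMF1. Of all protein-coding genes, 8.97% had one. EBS, VRN1 and BMI1C had a peak in 1 replicate and none in the other, so 3 of the 10 genes stood in that class, which held 11.8% of all genes. Counting a peak in at least 1 replicate gave 5 of 10 genes, beside 20.5% of all genes. In replicate 1 alone there were 4 (SHL, EMF1, VRN1 and BMI1C), beside 14.8% of all genes, and in replicate 2 alone 3 (SHL, EBS and EMF1), beside 14.4%. LHP1, RING1A, RING1B, BMI1A and BMI1B had no peak within 1 kb in either list. All 10 genes are longer than the median protein-coding gene, at 2622 to 5758 bp against 2078 bp. Among the 8301 protein-coding genes in that range of length, 7.48% had a common region and 17.3% had a peak in at least 1 replicate. With only 10 genes picked with earlier results known, these counts are a description, and enrichment was not tested.

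**Figure D1:**
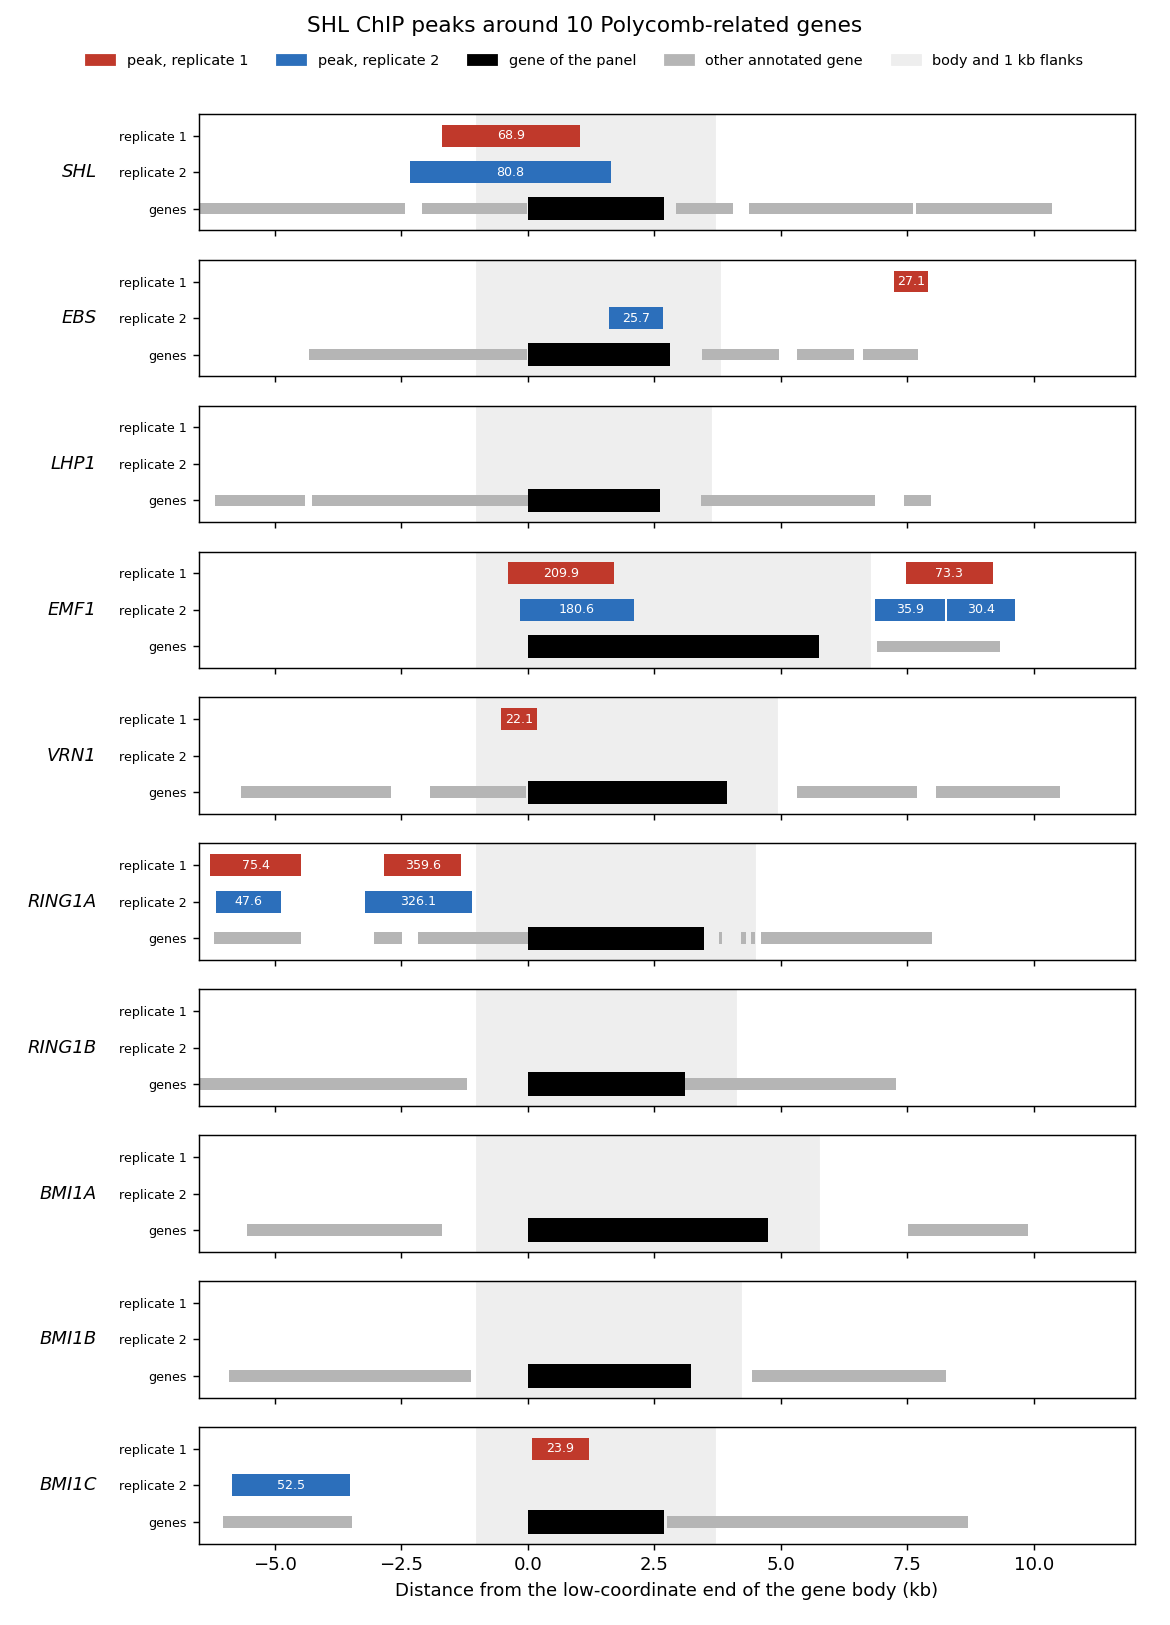
Peaks of replicate 1 (red) and replicate 2 (blue) within 5 kb of each of the 10 gene bodies, drawn to scale against the distance in kb from the low-coordinate end of the gene body. Black bars are the named genes, grey bars other annotated genes, shading the body with 1 kb flanks, and the numbers on the peaks are the authors' scores. Both replicates have peaks on SHL and EMF1, while the peaks of both beside RING1A end short of its shaded window.

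The histone reader genes differed from each other. SHL (AT4G39100) lay under a peak in both lists. In replicate 1 this peak ran over chr4:18215942-18218665 and scored 68.9, which placed it 1237th of 3678 peaks. In replicate 2 it ran over chr4:18215297-18219266 and scored 80.8, 1102nd of 3494. All of the replicate 1 peak was contained in that of replicate 2. The peaks covered the low-coordinate 38.5% of the SHL body in replicate 1 and 60.8% in replicate 2. The reference table gives no strand, so which end holds the start of transcription is not stated.

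Most of the SHL peak lay on the neighbouring gene. RD19 (AT4G39090), for a cysteine protease induced by drought, is separated from SHL by 12 bp. RD19 held 61.5% of the bases of the replicate 1 peak, while SHL held 38.1%. In replicate 2 RD19 held 52.3% and SHL 41.3%. The midpoint of the peak was in RD19 in both replicates, so these lists do not assign the signal to one gene of the pair. On the other side of SHL, the non-coding RNA gene AT4G09805, 236 bp away, had no peak on its body in either list.

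The SHL peak was wide for its score. Its widths of 2724 bp in replicate 1 and 3970 bp in replicate 2 compare with medians of 1374 bp and 1541 bp among peaks scoring from 50 to under 100. Only 10 of the 451 replicate 1 peaks in that class were wider, and none of the 452 replicate 2 peaks was. The EMF1 peak was also wider than the median of its class, scores of 100 and above. In replicate 1 its width was 2096 bp against a median of 1367 bp, and 176 of 1059 peaks were wider. In replicate 2 it was 2245 bp against 1543 bp, and 203 of 1007 were wider. The plants hold a second copy of SHL sequence in the transgene. The part of that copy in the SHL peak was not tested, since the lists give no reads and no input values.

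EBS (AT4G22140), the closest relative of SHL, had a peak in replicate 2 only. It ran over chr4:11729315-11730386 and scored 25.7, 2630th of 3494 peaks. It lay wholly inside the gene, between 57.4% and 95.6% of the way from its low-coordinate end, and touched no other gene. The nearest peak of replicate 1 was 4428 bp from the EBS body and scored 27.1, on another gene. SRF8, 12 bp away, and PUX3, 639 bp away, had no peak on their bodies in either list.

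LHP1 (AT5G17690), listed as TFL2 in the reference table, was the gene farthest from any peak. The nearest peak was 18983 bp away in replicate 1, with a score of 41.5, and 27321 bp away in replicate 2, with a score of 25.7. The nearest common region was 47333 bp away, and 74.7% of protein-coding genes lay at least as near to one. Its neighbours AT5G17680 and AT5G17700 had no peak on their bodies either.

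EMF1 (AT5G11530) was the gene with the highest-scoring peaks within its window. The replicate 1 peak ran over chr5:3695410-3697505 with a score of 209.9, 836th of 3678. The replicate 2 peak ran over chr5:3695638-3697882 with a score of 180.6, 819th of 3494. The replicates agreed closely in extent: 1868 bp were shared, which was 89.1% of the replicate 1 peak and 83.2% of the replicate 2 peak. Requiring scores of at least 100 in both lists left EMF1 as the only one of the 10 genes, beside 2.91% of all protein-coding genes.

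The EMF1 peak lay on EMF1 and on no other annotated gene. It covered the low-coordinate 29.8% of the body in replicate 1 and 36.3% in replicate 2, and reached past that end of the gene in both. The remaining bases, 18.2% of the peak in replicate 1 and 6.86% in replicate 2, lay outside any gene. EMF1 is the longest of the 10 genes, at 5758 bp, and the rest of its body had no peak.

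Beyond the other end of EMF1, a second common region started 1104 bp from the body, just outside the window. It lay at chr5:3702654-3705417 and held 1 peak of replicate 1, with a score of 73.3, and 2 peaks of replicate 2, with scores of 35.9 and 30.4. These peaks lay mostly on GulLO3 (AT5G11540), named for L-gulonolactone oxidase, and were not counted for EMF1.

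Among the 2462 protein-coding genes with a common region in body or flank, each gene was placed by the lower of its region's score percentiles in the replicates. EMF1 stood 672nd with a percentile of 76.6, and SHL stood 905th with 66.4. The median gene had 54.6. Both genes were above the median of this order without being near its top.

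**Figure D2:**
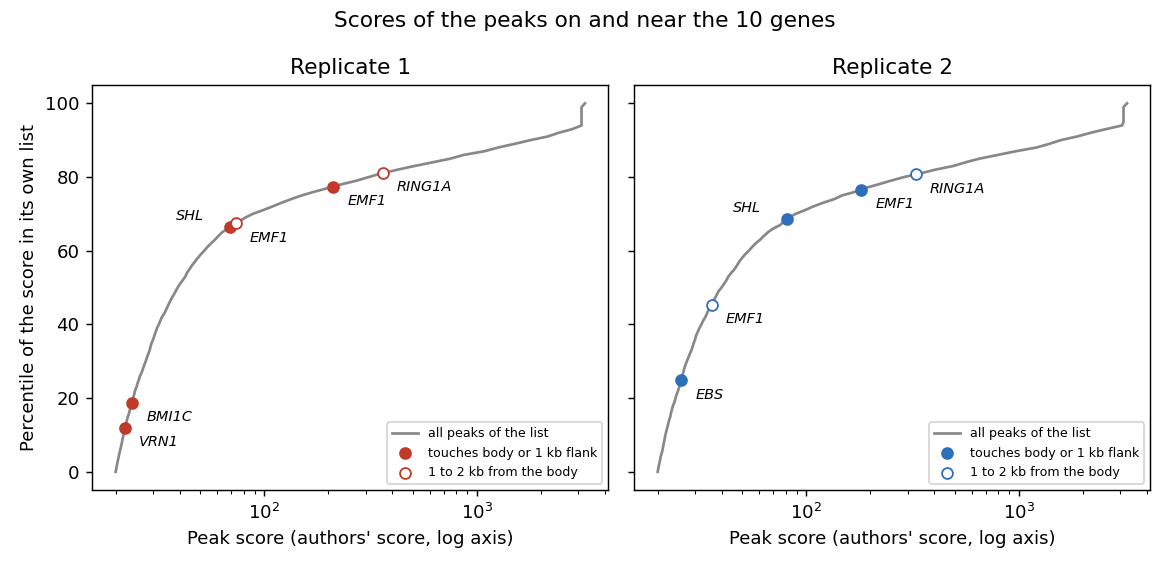
Score of each peak on or near the 10 genes (x axis, log scale) against its percentile in its own list (y axis), with 1 panel per replicate and a grey line for all peaks of the list. Filled points touch the body or 1 kb flank and open points lie 1 to 2 kb away: EBS, BMI1C and VRN1 sit in the lowest 25% of their lists, and SHL and EMF1 between the 66th and the 78th percentile.

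VRN1 (AT3G18990) had the lowest-scoring peak of the set, in replicate 1 only. It ran over chr3:6547594-6548315 with a score of 22.1, 3243rd of 3678, and was 722 bp wide. It covered the first 189 bp at the low-coordinate end of VRN1, or 4.81% of the body. ETP1 (AT3G18980), for an F-box protein of ethylene signalling, lies 34 bp away and held 69.1% of the peak and its midpoint. In replicate 2 the nearest peak was 9513 bp from VRN1 and scored 32.5.

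The RING1 genes both lacked a peak within 1 kb but differed in what lay beyond. RING1A (AT5G44280) was 1315 bp from a replicate 1 peak at chr5:17832978-17834494 with a score of 359.6, 701st of 3678. It was 1103 bp from a replicate 2 peak at chr5:17832595-17834706 with a score of 326, 677th of 3494. These were the highest scores within 2 kb of any of the 10 genes, and the replicate 1 peak was wholly inside that of replicate 2. The midpoints of both were in AT5G44270, a gene without a symbol in the reference table one end of which overlaps RING1A by 8 bp. Widening the flank to 2 kb brought in RING1A and gave 3 of 10 genes with a common region, beside 11.6% of all genes. On the other side of RING1A, the tRNA gene AT5G44283 and the snoRNA genes AT5G06565 and AT5G44286, at 281, 722 and 916 bp, had no peak in either list. RING1B (AT1G03770) was 6375 bp from the nearest peak of replicate 1 and 6601 bp from that of replicate 2. TPX2, which overlaps RING1B by 163 bp, had no peak on its body in either list.

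Among the BMI1 genes, only BMI1C had a peak, and in 1 replicate. BMI1C (AT3G23060) has no symbol in the reference table. Its replicate 1 peak ran over chr3:8200712-8201840 with a score of 23.9, 2984th of 3678. The peak lay wholly inside the gene and covered 41.8% of it, at the low-coordinate end. In replicate 2 the nearest peak was 3507 bp away, scored 52.5 and lay on IAA7, which encodes an auxin-response repressor. CFM3A, 57 bp from BMI1C, had no peak on its body.

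BMI1A (AT2G30580) and BMI1B (AT1G06770), listed as DRIP2 and DRIP1 for their role in degrading the drought regulator DREB2A, had none within 5 kb. From BMI1A the nearest peak was 5805 bp away in replicate 1 and 5749 bp in replicate 2. From BMI1B it was 7997 bp away in replicate 1 and 7922 bp in replicate 2. In both cases the nearest peaks of the replicates lay at similar distances.

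**Figure D3:**
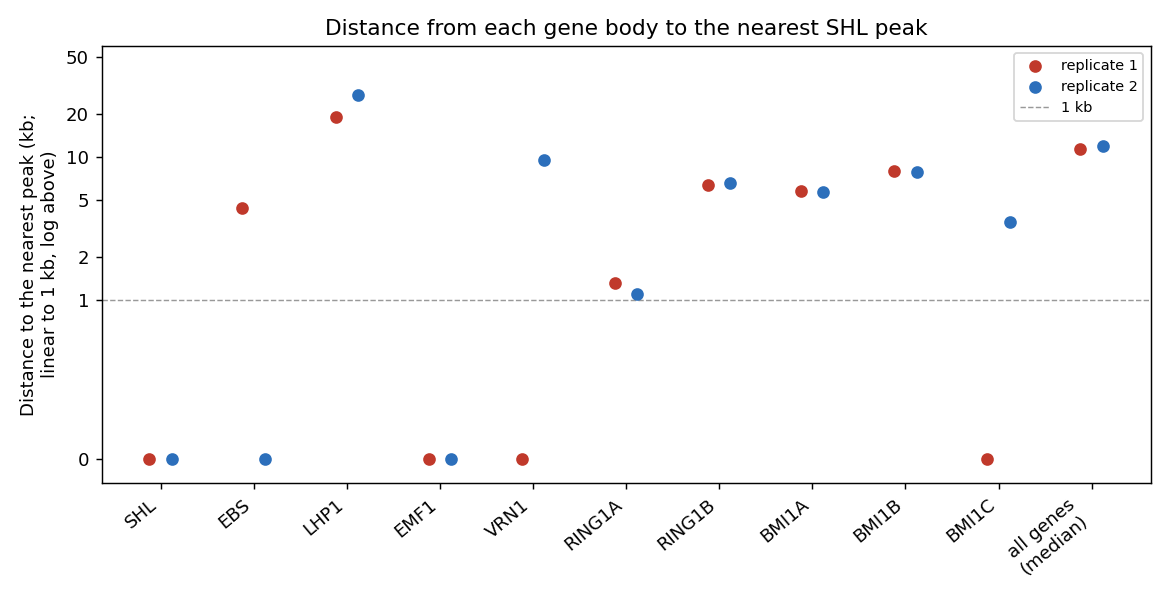
Distance in kb from each gene body to the nearest peak of replicate 1 (red) and replicate 2 (blue), on a scale that is linear to 1 kb and logarithmic above, with the median over all protein-coding genes at the right. SHL and EMF1 are at 0 in both lists, EBS, VRN1 and BMI1C in 1, and LHP1 alone is farther in both lists than the median gene.

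Across the 10 genes the nearest peak lay at a median distance of 2872 bp by the replicate 1 list and 4628 bp by the replicate 2 list. For all protein-coding genes the replicate 1 median came to 11414 bp, while that of replicate 2 came to 11924 bp. To the nearest common region the medians were 6634 bp for the 10 genes and 21854 bp for all. LHP1 was the only one of the 10 above the all-gene median for common regions. All 10 genes are longer than the median gene, and no distance was taken over genes of similar length. They were also picked with earlier results known, so these distances are a description, and nearness was not tested.

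How often a peak was met by one in the other replicate depended on its score, which bears on EBS, VRN1 and BMI1C. Of peaks scoring from 20 to under 30, the class of all 3, 31.6% of 1312 in replicate 1 and 32.5% of 1254 in replicate 2 were overlapped by the other list. For scores from 30 to under 50 the shares were 53.8% in replicate 1 and 57.5% in replicate 2. For scores from 50 to under 100, the class of SHL, they were 79.8% and 86.5%. At 100 and above, the class of EMF1, they were 99.6% of 1059 peaks and 99.8% of 1007. A peak seen in 1 replicate is therefore the usual case at these scores, which lie close to the lowest of each list. Such a peak does not by itself show binding, and absence from the other list does not show absence of binding.

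**Figure D4:**
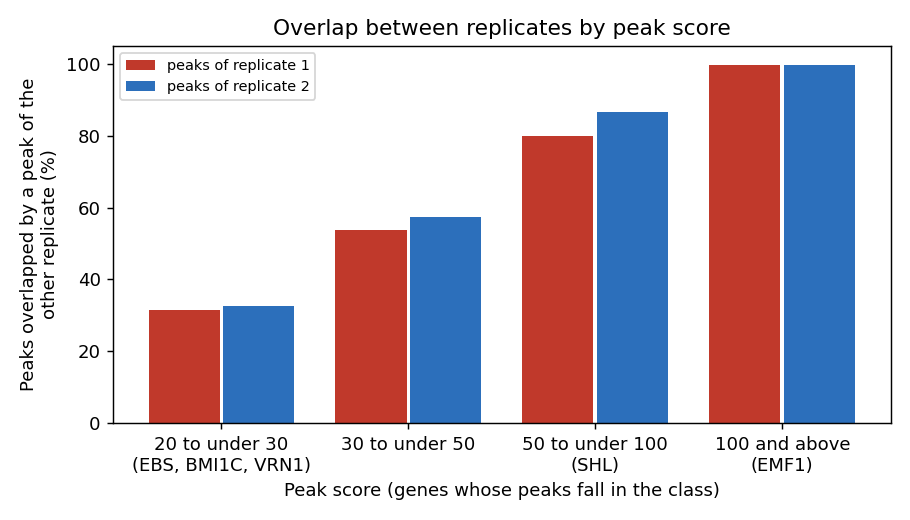
Share of the peaks of each replicate (y axis, percent) that are overlapped by at least 1 bp of a peak of the other replicate, by class of score (x axis), with the genes whose peaks fall in each class. The share is 31.6% and 32.5% in the lowest class and 99.6% and 99.8% in the highest.

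Other genes, of the Polycomb pathway or for other proteins with a BAH domain, were taken as 5 lists with 39 genes in all, by the same window. A common region was found at 2 of the 39, beside the 8.97% of all genes given above, and 32 had no peak in either list. Over all protein-coding genes 20.5% had a peak in at least 1 replicate, and the count over the 39 genes is near that share. None of the 10 core PRC2 genes had a common region. MEA, a PRC2 methyltransferase gene, was 802 bp from a replicate 1 peak scoring 36.1, all of which lay on another gene. FIS2, for a PRC2 zinc finger subunit, had a replicate 1 peak scoring 29.5 on its body. Neither peak was overlapped by one of replicate 2. None of the 5 genes listed for other BAH domain proteins had a peak in either replicate, and BAH domain genes outside that list were not examined. Of the 14 genes for partners of PRC1 and LHP1, none had a common region and 12 had no peak.

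The common regions belonged to a histone demethylase gene and to VIN3. Of the 5 listed genes for H3K27me3 demethylases, 4 had no peak in either list. Of the 5 VIN3 family genes, 3 had none. JMJD5 (AT3G20810), also called JMJ30, encodes a histone demethylase that acts on H3K27 methylation, and it had a region at each end of its body. The region at chr3:7275075-7276778 scored 1381 in replicate 1 and 1288 in replicate 2, and that at chr3:7278167-7279310 scored 1016 and 861 in the same order. These scores exceed those of every peak on the 10 genes. The peaks of the second region lay mostly outside any gene, with 83.8% of their bases in replicate 1 and 77.8% in replicate 2. They covered 6.02% of the JMJD5 body in replicate 1 and 9.15% in replicate 2. VIN3 (AT5G57380), whose product joins PRC2 during vernalization, was 744 bp from a region at chr5:23244224-23245650 that scored 333 in replicate 1 and 363 in replicate 2. Only the replicate 1 peak of that region reached within 1 kb of VIN3, and nearly all of it, 98.7%, lay on other genes with its midpoint in AT5G57370. On the VIN3 body itself only replicate 2 had a peak, with a score of 20.5.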

How the data were processed

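ChIP DNA of 2 samples was sequenced, and the authors deposited 1 peak list with a score per peak for each. The tools named in the submitters' processing notes are MACS 1.4, Bowtie2 2.2.8 and SAMtools 1.3, and the build is TAIR10. Settings, filters and the control given to the caller are not given in the sources used here. MACS 1.4 by convention writes log10(p), multiplied by 10 and with its sign reversed, as this score, although no header says so. Low-scoring calls can differ between replicates through depth alone, which the lists do not give.

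Genes were placed with the RefSeq table of TAIR10.1 (Python 3.11.15, pandas 2.3.3). It has no strand, exons or sequence, so no gene coordinate, exon class or sequence is printed. The shares of common region midpoints in protein-coding bodies were 29.0%, 57.0% and 29.8% after shifts of -1500, 0 and 1500 bp. Peak coordinates are 1-based TAIR10. Peaks were shared at 1 bp of overlap, and a common region is the full extent of overlapping peaks. The overlap steps were tested on simulated data.

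Named were all 10 genes, every gene within 1 kb of one or under its peaks, and each list gene with a common region. GulLO3, IAA7, MEA, FIS2, AL6 and AT5G57370 were named after their values were seen. The genes and lists were chosen with earlier results of these data known. Other flanks, score minimums, overlap rules and single replicates were tried as alternatives.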

Additional observations from a re-analysis of the deposited data

How the results depend on the processing

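Flanks of 2 kb added RING1A to the 2 genes with a common region, SHL and EMF1, beside 11.6% of all genes. These 2 were the same with gene bodies alone, beside 6.28% of all genes, and with a reciprocal overlap of 50%, beside 7.58%. They were also the same with scores of at least 50, beside 4.01%, and with midpoints in the body or 1 kb flank, beside 6.52%. The midpoint of the SHL region lay in RD19, so by midpoint SHL was kept only through its flank. With scores of at least 100 the count was 1, EMF1, both for common regions and for a peak in each replicate. The shares of all genes were then 2.91% and 2.71%. Using 1 list alone gave 3 genes for replicate 2, beside 14.4% of all genes, and 4 for replicate 1, beside 14.8%. Of the 39 genes in the other lists, 2 had a common region, beside 8.97% of all genes. The count was 1 with bodies alone and 1 with midpoints, where VIN3 was lost. It was 3 with 2 kb flanks, where AL6 was added, and 3 to 6 in 1 list alone. The shares of all genes given above for each setting apply here too. The 7 peaks on the 10 genes became 11 with 2 kb flanks, 4 at scores of at least 50 and 2 at scores of at least 100, and numbered 3 to 4 in 1 list; these alternatives for the number of peaks were chosen after the data were seen. No paired analysis was possible because the input samples had no list and no test was made. Read depth, mapping and input signal could not be examined.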
